A study of Mus musculus with 18 samples.

Results

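Kidneys of mice given STZ and AOS were compared with kidneys of mice given STZ and a control transfer, by RNA sequencing. The members are the 3 libraries labelled STZ+AOS and the 3 labelled STZ+control-FMT, taken by treatment label, 6 of the 18 libraries of the series. STZ+AOS mice had STZ and AOS at 10 mg/kg. STZ+control-FMT mice had STZ and a transfer labelled control, and no AOS by their label. All 6 are from ICR mice (an outbred strain) aged 10 weeks, and the tissue is kidney. The other 12 libraries are STZ+AOS-FMT, STZ, AOS and control, 3 of each. STZ commonly stands for streptozotocin, which destroys the insulin-producing beta cells of the pancreas, and FMT for a transplant of faecal microbiota. What AOS stands for is not written in the labels, and neither are its route, the length of treatment and the donors of the transfer. The stated interest of the series is in how such transfers affect kidneys after STZ damage. The groups differ both in AOS and in the transfer, so the parts of these in any difference cannot be told apart. The labels do not say whether each library is from another mouse, so each p-value reflects only how much these samples vary, and that variation could be technical.

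The kidney cortex is made up largely of proximal tubules, whose cells take back glucose, amino acids and phosphate from the filtrate and pass organic acids and drugs from blood to urine. These cells depend on mitochondrial fat oxidation. Injured tubule cells lower their transporters and make proteins that healthy ones hardly make, such as Havcr1 (kidney injury molecule) and Lcn2 (neutrophil gelatinase-associated lipocalin). The adrenal gland lies against the upper pole of the kidney, and its cortex makes steroid hormones while its medulla, of chromaffin cells, makes catecholamines.

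The libraries of STZ+AOS stood apart from each other before any gene was compared. STZ+AOS 2 correlated with the 3 STZ+control-FMT libraries at Pearson r of 0.976 to 0.984 over the genes tested, and with STZ+AOS 1 and STZ+AOS 3 at 0.968 and 0.971. STZ+control-FMT libraries correlated among themselves at 0.990 to 0.991. The 14 adrenal cortex markers summed to 3048, 218 and 3807 FPKM in STZ+AOS 1, 2 and 3, against 64.2, 64.7 and 74.3 FPKM in STZ+control-FMT. FPKM are reads scaled by gene length and by the library's total. Among the other 12 libraries the same sum lay between 68.2 and 142 FPKM, apart from 1108 FPKM in control 3. The 12 chromaffin cell markers summed to 377, 33.8 and 263 FPKM in STZ+AOS, against 23.6, 56.0 and 59.5 FPKM in STZ+control-FMT. Adrenal transcripts were thus high in STZ+AOS 1 and 3 and much lower in STZ+AOS 2. Their part in the other differences was not tested. Genes with at least 1 FPKM numbered 12184 to 12607 in STZ+AOS and 11789 to 12061 in STZ+control-FMT.

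**Figure D1:**
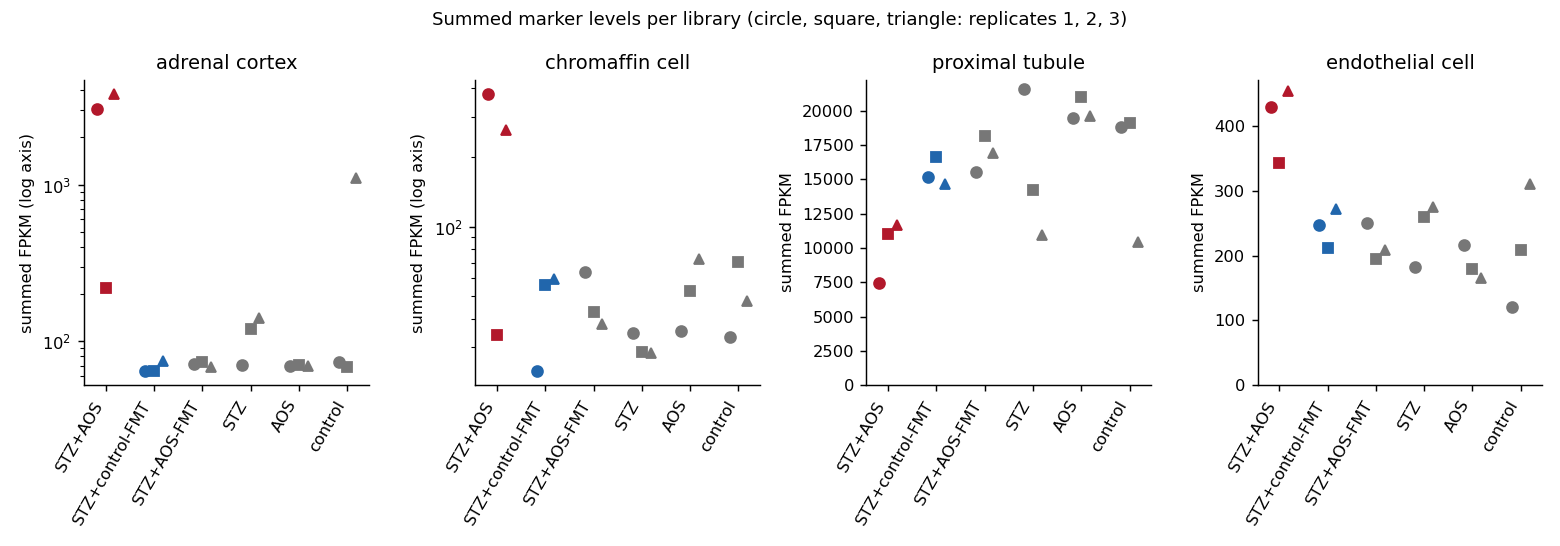
Summed FPKM of 4 marker lists in each of the 18 libraries (points; circle, square and triangle are replicates 1, 2 and 3), with log axes for adrenal cortex and chromaffin cell. STZ+AOS 1 and 3 had 3048 and 3807 FPKM of adrenal cortex markers against 64.2 to 74.3 FPKM in STZ+control-FMT, while the proximal tubule sum was 7430 to 11700 FPKM in STZ+AOS against 14629 to 16615 FPKM in STZ+control-FMT.

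Of 12682 genes tested, 567 differed between STZ+AOS and STZ+control-FMT at an adjusted p under 0.05 (4.47%). Of these, 395 were higher in STZ+AOS (3.11%) and 172 lower (1.36%), so that 69.7% of the differing genes were higher. That split depends on the scaling: 45.4% were higher after quantile normalization and 33.9% after median-of-ratios rescaling. The median difference of all genes tested was 0.16 on the log2(FPKM + 1) scale, and 9004 genes lay above 0, a shift that holds for every difference below. All 395 and all 172 kept their direction under both scalings. The 3 values of each group did not overlap for 5038 genes (39.7%), of which 4053 were higher in STZ+AOS (32%) and 985 lower (7.77%). The smallest adjusted p was 0.0269, and 4036 genes had an unadjusted p under 0.05. Rises and falls here and below are against STZ+control-FMT only, unless another group is named.

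The count of differing genes rests on single libraries. No gene passed when STZ+AOS 1 or any 1 of the 3 STZ+control-FMT libraries was left out (2820, 2977, 2599 and 3462 genes at an unadjusted p under 0.05 without STZ+AOS 1 and without STZ+control-FMT 1, 2 and 3), and 15 passed without STZ+AOS 3. Without STZ+AOS 2, 1389 passed, with 551 of the 567 among them. Failures of named sets below with other libraries left out follow from these counts over all genes. They are not particular to those sets. With STZ+AOS 1 and 3 both left out, 0 passed and 1100 genes had an unadjusted p under 0.05, but that fit has 1 STZ+AOS library, assumed to vary like the other groups. All 567 genes kept their direction in each of these fits. For 566 of them the groups do not overlap, so leaving out libraries could not turn their direction. With adrenal Cyp11b1 as a covariate 0 genes passed, 887 had an unadjusted p under 0.05, and 555 of the 567 kept their direction. Cyp11b1 was listed at 0 in all 3 STZ+control-FMT libraries and at 14.3 to 316 FPKM in STZ+AOS, so the groups share no level. Its slope comes from differences within groups, chiefly in STZ+AOS and in control 3 (118 FPKM). Changes of sign with this covariate, here and below, therefore cannot decide an adrenal part. The 567 genes were chosen with STZ+AOS 2 among the libraries, so that its direction in them is fixed by the choice. The sizes that follow are a description. The 376 higher genes outside the adrenal lists had a median log2 difference of 0.44 in STZ+AOS 2 and 0.69 in STZ+AOS 1 and 3. For the 172 lower genes these medians were -0.39 and -0.62. For the 19 higher genes in the adrenal lists they were 1.34 and 4.95.

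**Figure D2:**
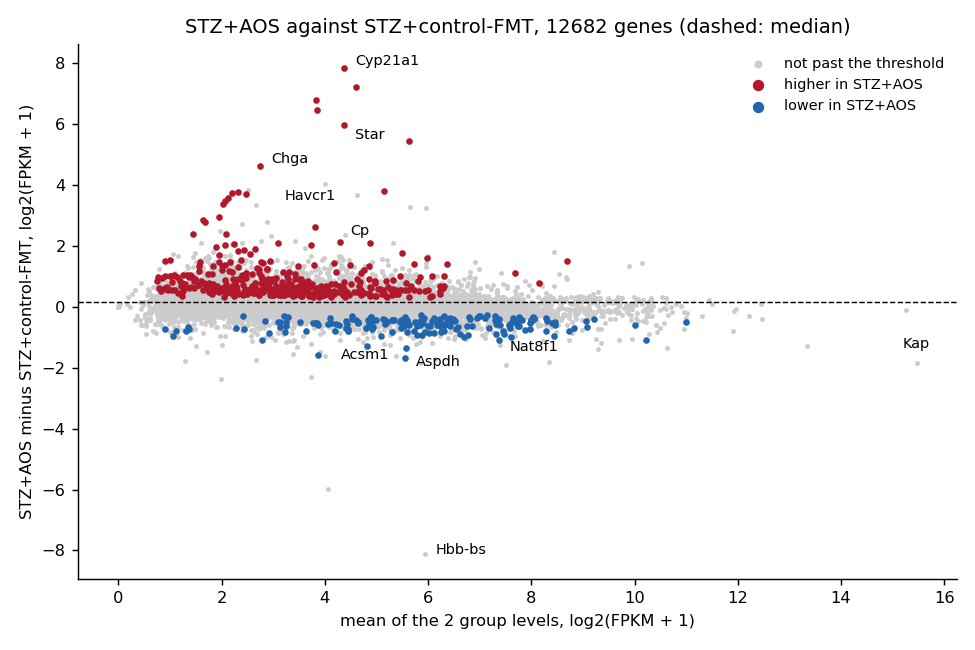
Log2 difference, STZ+AOS minus STZ+control-FMT (vertical), against the mean level of both groups (horizontal), both from log2(FPKM + 1), for 12682 genes. Red points are the 395 genes higher and blue the 172 lower at an adjusted p under 0.05, and the dashed line is the median of 0.16. Adrenal genes such as Cyp21a1 lie at the top, and Kap and Hbb-bs, which did not pass, lie low.

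The largest rises were in genes of the adrenal cortex. All 12 tested members of the 14 on the cortex list were higher in STZ+AOS, and they include the enzymes that turn cholesterol into corticosterone and aldosterone. Cyp21a1 (chr17:34801348-34804561, mm10, minus strand), a steroid hydroxylase, had 744, 34.1 and 481 FPKM in STZ+AOS against 0.08, 0 and 0 FPKM in STZ+control-FMT (log2 difference 7.83 ± 1.66 SE, adjusted p = 0.0324). Star, which brings cholesterol into mitochondria, had 327, 17.5 and 310 FPKM in STZ+AOS against 1.13, 0.75 and 1.05 FPKM in STZ+control-FMT (log2 difference 5.97 ± 1.33 SE, adjusted p = 0.0347). The groups did not overlap for either gene, and STZ+AOS 2 was the lowest of its group in both. Cyp11b1, the hydroxylase of the last step to corticosterone, had 316, 14.3 and 276 FPKM in STZ+AOS and was listed at 0 in all 3 STZ+control-FMT libraries. Cyp11b2, aldosterone synthase, had 29.6, 1.54 and 30.1 FPKM in STZ+AOS and was also listed at 0 in STZ+control-FMT. The cholesterol side-chain cleavage enzyme Cyp11a1 averaged 185 ± 150 FPKM in STZ+AOS and 0.117 ± 0.0603 FPKM in STZ+control-FMT (SD, n = 3 each).

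The remaining cortex genes followed the same order of libraries, with some differences between STZ+AOS 1 and 3. Hsd3b1, a steroid dehydrogenase, had 766, 35.2 and 379 FPKM in STZ+AOS against 0.34 to 0.68 FPKM in STZ+control-FMT. Akr1b7, an aldo-keto reductase of the adrenal cortex, had 220, 18.04 and 1379 FPKM in STZ+AOS against 1.34 to 6.45 FPKM in STZ+control-FMT. Scarb1, the receptor for high-density lipoprotein, had 141, 15.1 and 383 FPKM in STZ+AOS against 5.31 to 7.17 FPKM in STZ+control-FMT. Akr1b7 and Scarb1 were thus highest in STZ+AOS 3, and Hsd3b1 in STZ+AOS 1. Nr5a1, the nuclear receptor that drives steroid genes, had 27.1, 1.18 and 21.5 FPKM in STZ+AOS and was listed at 0 in STZ+control-FMT. Mc2r, the receptor for corticotropin, and its accessory protein Mrap were also higher (adjusted p = 0.0428 and 0.0423). Fdx1, the ferredoxin of these enzymes, which kidney also makes, averaged 117 ± 58.5 FPKM in STZ+AOS and 52.5 ± 3.14 FPKM in STZ+control-FMT (SD, n = 3 each). With STZ+AOS 1 or 3 or any 1 STZ+control-FMT library left out, none of these 12 passed (adjusted p from 0.0641 to 0.161). Without STZ+AOS 2 all 12 passed (adjusted p from 8.04e-05 to 0.0135).

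Of the 12 chromaffin cell markers 9 were tested, and 7 were higher in STZ+AOS. Chga, a chromogranin of secretory granules, had 63.5, 2.53 and 64.8 FPKM in STZ+AOS against 0, 0.04 and 0 FPKM in STZ+control-FMT (log2 difference 4.60 ± 0.91 SE, adjusted p = 0.0324). Chgb, its relative, had 31.0, 1.13 and 38.6 FPKM in STZ+AOS and at most 0.03 FPKM in STZ+control-FMT. The enzymes of catecholamine synthesis were in the same libraries. Th, which makes the dopamine precursor, had 33.6, 1.53 and 11.9 FPKM in STZ+AOS and was listed at 0 in STZ+control-FMT. Pnmt, which makes adrenaline, had 23.0, 1.31 and 29.5 FPKM in STZ+AOS and was listed at 0 in STZ+control-FMT, and Dbh, which makes noradrenaline, had 15.9, 1.34 and 8.57 FPKM in STZ+AOS against 0 to 0.03 FPKM in STZ+control-FMT. The granule protein genes Scg2 and Resp18 passed as well and were listed at 0 in STZ+control-FMT. Npy, a neuropeptide, and Slc18a1, an amine carrier of vesicles, did not pass. Npy had 169, 10.4 and 57.5 FPKM in STZ+AOS against 0.71, 22.5 and 34.6 FPKM in STZ+control-FMT, and Slc18a1 had 14.2 to 25.9 FPKM in STZ+AOS against 22.8 to 33.3 FPKM in STZ+control-FMT. With STZ+AOS 1 or 3 or any 1 STZ+control-FMT library left out, none of the 7 passed (adjusted p from 0.0584 to 0.144). Without STZ+AOS 2 all 7 passed (adjusted p from 6.66e-06 to 0.000199).

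Of 22 proximal tubule markers, 3 were lower in STZ+AOS, against 1.36% of all genes, and 0 higher. The values of 14 lay below all STZ+control-FMT values without overlap, against 7.77% of all genes, and 0 lay above. Their median log2 difference was -0.73, beside 0.16 over all genes tested. With Cyp11b1 as a covariate the median relative to all genes turned to 0.08, but the groups share no Cyp11b1 level. That fit cannot decide an adrenal part, which was not tested. In bulk tissue, fewer cells of a type and less RNA per cell cannot be told apart. Slc22a6 (chr19:8618039-8628299, plus strand), the organic anion transporter that moves drugs and toxins into the tubule cell, had 222, 316 and 218 FPKM in STZ+AOS against 504, 500 and 441 FPKM in STZ+control-FMT. Its group mean was 47.7% lower (log2 difference -0.95 ± 0.22 SE, adjusted p = 0.0391). Slc13a3, a carrier of dicarboxylates, had 149, 247 and 191 FPKM in STZ+AOS against 315, 345 and 296 FPKM in STZ+control-FMT (adjusted p = 0.0403). Slc5a2, the main glucose transporter of the early tubule and the target of the gliflozin drugs, had 184, 202 and 186 FPKM in STZ+AOS against 257, 295 and 234 FPKM in STZ+control-FMT (27.2% lower, adjusted p = 0.0487). In each of the 3 genes every STZ+AOS library lay below every STZ+control-FMT library, and STZ+AOS 2 was the highest of its group. Slc34a1, the main phosphate carrier, had 1288 to 1898 FPKM in STZ+AOS against 2189 to 2885 FPKM in STZ+control-FMT and did not pass (adjusted p = 0.0516).

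Lists of other carriers overlapped the proximal tubule list in part. Of 18 tested organic anion and cation transporters, 2 were lower, with Slc22a6 again among them, and none higher. Without overlap, 11 lay below STZ+control-FMT and 3 above it, against 7.77% and 32% of all genes, and the list median relative to all genes turned to 0.01 with Cyp11b1 as a covariate. The urate carrier Slc22a12 had 412 to 594 FPKM in STZ+AOS against 723 to 873 FPKM in STZ+control-FMT, with no call (adjusted p = 0.0799). Of 15 amino acid transporters 4 lay below STZ+control-FMT and 2 above it without overlap, against 7.77% and 32% of all genes. Of the 15, 1 was lower, Slc6a20b, a carrier of proline-like amino acids, at 39.8, 56.6 and 45.5 FPKM in STZ+AOS against 83.7, 90.0 and 85.2 FPKM in STZ+control-FMT (45.2% lower, adjusted p = 0.0318). Slc6a18, another amino acid carrier, had 107 to 111 FPKM in STZ+AOS against 73.9 to 90.7 FPKM in STZ+control-FMT and did not pass (adjusted p = 0.0978). Among 13 genes of ammonia and acid handling, Car12, a carbonic anhydrase, fell to 72.1 ± 19.6 FPKM in STZ+AOS, against 118 ± 13.6 FPKM in STZ+control-FMT (SD, n = 3 each, adjusted p = 0.0423). Of Slc22a6, Slc13a3, Slc5a2, Slc6a20b and Car12, none passed with STZ+AOS 1 or 3 or any 1 STZ+control-FMT library left out (adjusted p from 0.0608 to 0.182).

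Of 12 tested genes of phosphate handling 3 were lower and 2 higher, and the median was -0.36. Without overlap, 6 lay below STZ+control-FMT and 2 above it, against 7.77% and 32% of all genes. The median relative to all genes turned to 0.02 with Cyp11b1 as a covariate. Pdzk1, a scaffold that holds transporters at the brush border, had 326, 441 and 303 FPKM in STZ+AOS against 590, 595 and 551 FPKM in STZ+control-FMT (38.3% lower, adjusted p = 0.0324). Slc34a3, a sodium-phosphate carrier of the brush border, had 14.2, 18.2 and 14.2 FPKM in STZ+AOS against 25.3, 31.9 and 25.6 FPKM in STZ+control-FMT (43.7% lower, adjusted p = 0.0324). Pth1r, the receptor for parathyroid hormone, had 175, 199 and 161 FPKM in STZ+AOS against 297, 338 and 279 FPKM in STZ+control-FMT (adjusted p = 0.0495). These 3 genes were lower in every STZ+AOS library than in any STZ+control-FMT library. Slc20a1, a phosphate carrier found in most cells, went the other way, with 60.6, 28.9 and 26.4 FPKM in STZ+AOS against 15.8, 14.7 and 18.2 FPKM in STZ+control-FMT (2.38-fold by the means, adjusted p = 0.0425). Fgfr1, a receptor for fibroblast growth factors, was higher by 1.48-fold (adjusted p = 0.0347). With STZ+AOS 1 or 3 or any 1 STZ+control-FMT library left out, none of the 5 passed (adjusted p from 0.0593 to 0.176).

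**Figure D3:**
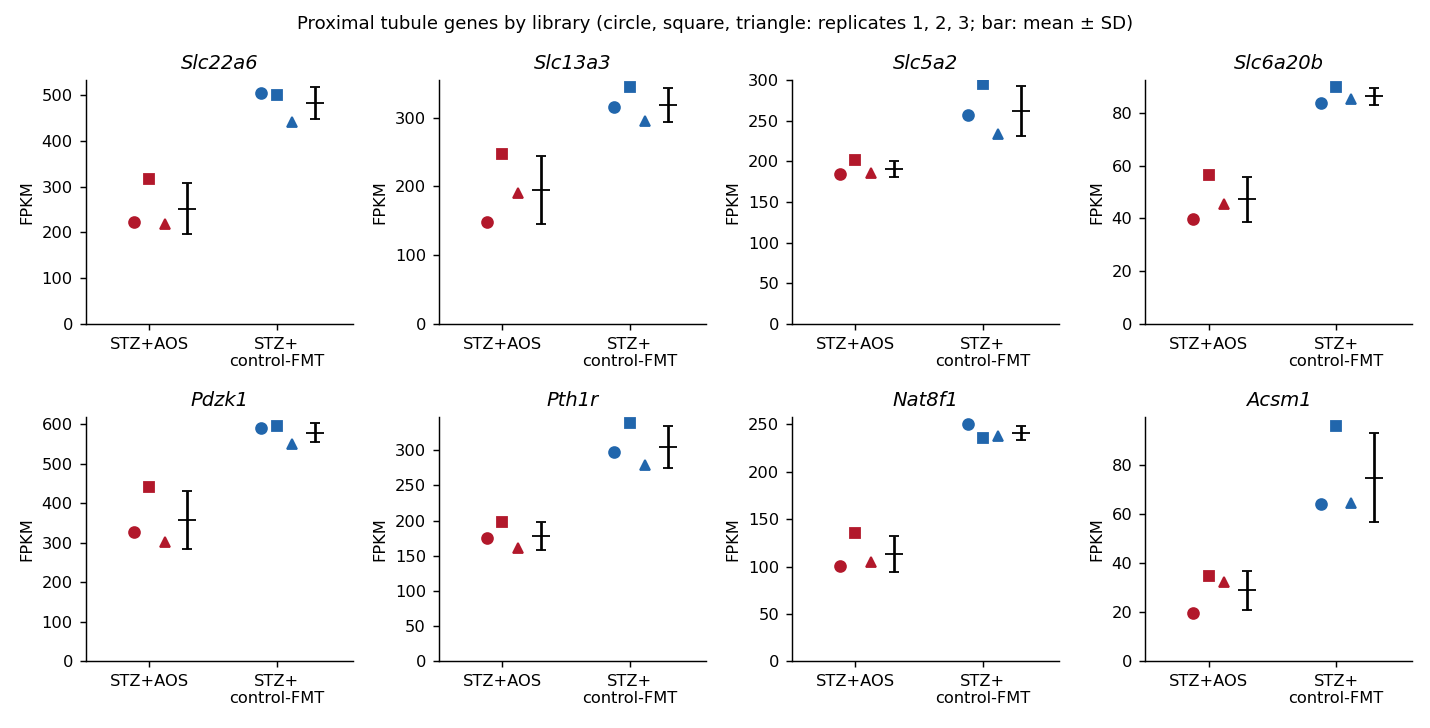
FPKM of 8 genes that were lower in STZ+AOS than in STZ+control-FMT, by library (points; circle, square and triangle are replicates 1, 2 and 3), with mean and SD (n = 3) beside each group. The groups do not overlap in any panel, as in Slc22a6 with 218 to 316 FPKM in STZ+AOS against 441 to 504 FPKM in STZ+control-FMT, and STZ+AOS 2 is the nearest to STZ+control-FMT in each.

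Enzyme genes were 7 of the 10 largest falls. Nat8f1 (chr6:85910154-85915687, minus strand), of a family of N-acetyltransferases, had 100, 135 and 104 FPKM in STZ+AOS against 250, 236 and 238 FPKM in STZ+control-FMT (53.02% lower, log2 difference -1.10 ± 0.15 SE, adjusted p = 0.0269). The group means of its relatives Nat8f7 and Nat8f6 were 64.3% and 48.0% lower (adjusted p = 0.0473 and 0.0488). The copies of this family are alike, and the counting may have split reads between them. Acsm1, which activates medium-chain fatty acids, had 19.8, 34.8 and 32.2 FPKM in STZ+AOS against 63.9, 95.6 and 64.5 FPKM in STZ+control-FMT (61.3% lower, adjusted p = 0.0269). Aspdh, named for an aspartate dehydrogenase domain, had 14.4, 25.5 and 37.0 FPKM in STZ+AOS against 70.2, 104 and 69.7 FPKM in STZ+control-FMT (68.5% lower, adjusted p = 0.0439). All 3 STZ+AOS values were under all STZ+control-FMT values in both genes, and STZ+AOS 1 was the lowest.

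Others in this group have other substrates. Akr1c21, a hydroxysteroid dehydrogenase, averaged 831 ± 270 FPKM in STZ+AOS and 1731 ± 370 FPKM in STZ+control-FMT (SD, n = 3 each, adjusted p = 0.0354). Eci3, an isomerase of fat oxidation, had 102 to 166 FPKM in STZ+AOS against 262 to 283 FPKM in STZ+control-FMT (adjusted p = 0.0347). Thnsl2, named for its likeness to threonine synthase, had 47.9 to 88.2 FPKM in STZ+AOS against 110 to 160 FPKM in STZ+control-FMT. Of these enzymes and those of the Nat8f family, Acsm1 and Aspdh, only Nat8f1 passed when STZ+AOS 3 was left out (adjusted p = 0.0451), and none passed without STZ+AOS 1 or without any 1 STZ+control-FMT library (adjusted p from 0.0671 to 0.167).

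The remaining named falls have other roles. Cks2, a small partner of cyclin-dependent kinases, had 37.97, 37.3 and 30.4 FPKM in STZ+AOS against 63.6, 62.2 and 64.1 FPKM in STZ+control-FMT (44.3% lower, adjusted p = 0.0269). Prok1, a secreted prokineticin, had 2.80, 4.55 and 3.87 FPKM in STZ+AOS against 8.96, 8.12 and 9.68 FPKM in STZ+control-FMT (adjusted p = 0.0318). Snx31, a sorting nexin, had 2.42, 13.7 and 8.47 FPKM in STZ+AOS against 20.98 to 23.8 FPKM in STZ+control-FMT (adjusted p = 0.0417). STZ+AOS 2 was the highest of its group for Prok1 and Snx31, but not for Cks2. Rab42, a small GTPase, and Ankrd65, an ankyrin repeat protein, were under 1 FPKM in every STZ+AOS library and between 1.39 and 2.50 FPKM in every STZ+control-FMT library. Of these 5, only Cks2 passed without STZ+AOS 3 (adjusted p = 0.0454), and none passed without STZ+AOS 1 or without any 1 STZ+control-FMT library (adjusted p from 0.0671 to 0.154).

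The promoters of a gene that fell and of a gene that rose are printed because each holds a match to a motif searched. They run from 250 bases before to 50 bases after the start in RefSeq, build GRCm38.p6. Capitals mark the motif match. Aspdh is at chr7:44465185-44465484, plus strand, with the HNF4 motif CAAAGTCCA beginning 52 bases before the start. HNF4 is a nuclear receptor of the proximal tubule and liver.
Aspdh: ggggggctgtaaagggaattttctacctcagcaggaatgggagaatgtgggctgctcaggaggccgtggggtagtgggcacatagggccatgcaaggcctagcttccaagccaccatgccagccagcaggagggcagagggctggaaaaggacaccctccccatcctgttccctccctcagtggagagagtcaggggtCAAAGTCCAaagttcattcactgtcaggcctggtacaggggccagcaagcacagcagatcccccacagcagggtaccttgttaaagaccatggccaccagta
Srxn1 is at chr2:152105274-152105573, plus strand, with the AP-1 motif TGANTCA beginning 102 and 45 bases before the start. AP-1 is the pair of Fos and Jun type proteins of the early response.
Srxn1: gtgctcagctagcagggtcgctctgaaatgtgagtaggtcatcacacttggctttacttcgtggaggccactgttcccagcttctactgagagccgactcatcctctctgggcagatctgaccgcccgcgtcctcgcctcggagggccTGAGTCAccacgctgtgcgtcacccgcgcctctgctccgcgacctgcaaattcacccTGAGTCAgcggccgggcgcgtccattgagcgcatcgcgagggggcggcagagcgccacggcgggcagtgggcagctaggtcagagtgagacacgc

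Of 41 genes looked up, 27 had a promoter in the table. Among these 27, the HNF4 motif stood in 2 genes, Aspdh and Pdzk1, and in 0.475% of all 32851 promoters of the same length. The AP-1 motif stood in 2 genes, Cp and Srxn1, and in 7.81% of all promoters. The antioxidant response element TGACNNNGC stood in 7 genes, Fbp1, G6pdx, Klf6, Maff, Pdzk1, Slc13a3 and Srxn1, and in 12.4% of all promoters. Of these genes Fbp1, Pdzk1 and Slc13a3 fell and G6pdx, Klf6 and Srxn1 rose, while the level of Maff is not reported here. The SF-1 motif CAAGGTCA, bound by the product of Nr5a1, and the HNF1 motif stood in none of the 27, and in 1.56% and 0.0396% of all promoters. Among 12805 promoters of tested genes, the HNF4, AP-1 and antioxidant motifs stood in 0.414%, 5.27% and 14.4%. Those of SF-1 and HNF1 stood in 1.14% and 0.0234%. Both strands were searched, some genes have several promoters, and these matches are letters in a window only. The counts are of genes picked for this report and the percentages of single promoters, so together they measure no enrichment.

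Metabolic genes showed few calls. Of 22 tested genes of gluconeogenesis and glycolysis 1 was lower, Fbp1, the fructose bisphosphatase of glucose synthesis, which fell to 841 ± 194 FPKM in STZ+AOS, against 1266 ± 78.1 FPKM in STZ+control-FMT (SD, n = 3 each, adjusted p = 0.0492). Khk, the kinase that starts fructose use, had 276, 462 and 378 FPKM in STZ+AOS against 512, 540 and 497 FPKM in STZ+control-FMT without passing (adjusted p = 0.0641). Of 23 genes of fatty acid oxidation, 2 were lower, Hadh (30.2% lower, adjusted p = 0.0397) and Acaa1a (24.3% lower, adjusted p = 0.0473), and 0 higher. Hadh is a mitochondrial dehydrogenase of the pathway and Acaa1a a peroxisomal thiolase. Among 24 nuclear genes of oxidative phosphorylation 1 was lower, Sdhc, a subunit of succinate dehydrogenase (21.9% lower, adjusted p = 0.0406). Of these 24 genes, 16 lay below STZ+control-FMT without overlap, against 7.77% of all genes, and none above, with a median of -0.18 beside 0.16 over all genes. Pdk4, which restrains glucose oxidation, had 21.9, 15.1 and 26.6 FPKM in STZ+AOS against 12.8, 6.62 and 6.08 FPKM in STZ+control-FMT, without passing (adjusted p = 0.0597). Of Fbp1, Hadh, Acaa1a and Sdhc none passed with STZ+AOS 1 or 3 or any 1 STZ+control-FMT library left out (adjusted p from 0.0608 to 0.181).

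Genes listed as responding to male hormones (androgens) in mouse kidney were mostly low in STZ+AOS, without a call. The list does not separate genes that androgens raise from genes that they lower, so its median and counts may mix both. Of 12 tested, 0 passed, 8 lay below STZ+control-FMT and 2 above it without overlap, against 7.77% and 32% of all genes, and the median was -1.02. Kap (chr6:133849851-133853762, minus strand), the kidney androgen-regulated protein and the most abundant of them, had 6174, 35781 and 41198 FPKM in STZ+AOS against 64840, 85880 and 75587 FPKM in STZ+control-FMT (adjusted p = 0.168). It made up 1.02% to 6.73% of the summed FPKM in STZ+AOS and 9.78% to 12.5% in STZ+control-FMT. Slco1a1, an organic anion transporter, had 8.62, 40.5 and 47.9 FPKM in STZ+AOS against 86.5, 104 and 99.7 FPKM in STZ+control-FMT (adjusted p = 0.147). STZ+AOS 1 was far below the other STZ+AOS libraries in both. Low Kap was not particular to STZ+AOS, since it was at 14615 and 15798 FPKM in STZ 3 and control 3. In the remaining libraries outside STZ+AOS, Kap lay above all STZ+AOS values. Slc7a12, which was higher, had 6.96, 9.16 and 1.38 FPKM in STZ+AOS against 0.23 to 0.49 FPKM in STZ+control-FMT (adjusted p = 0.108). With adrenal Cyp11b1 as a covariate Kap, Slco1a1 and Slc7a12 changed direction (log2 differences 1.29, 1.18 and -0.12).

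Injury genes were high in STZ+AOS and differed widely among its libraries. All 17 tested members of the list had a log2 difference above 0, as did 9004 of the 12682 genes tested. Without overlap, 9 lay above STZ+control-FMT, against 32% of all genes, and 0 below. The median was 1.09, and relative to all genes it turned to -0.31 with Cyp11b1 as a covariate. The 1 gene that passed, against 3.11% of all genes, was Cd44, a receptor for hyaluronan, with 6.31, 1.58 and 12.03 FPKM in STZ+AOS against 0.94, 0.79 and 1.09 FPKM in STZ+control-FMT (7.06-fold by the means, adjusted p = 0.0430). Havcr1 (chr11:46735080-46779578, plus strand) had 423, 32.0 and 7.45 FPKM in STZ+AOS against 2.32, 3.05 and 3.27 FPKM in STZ+control-FMT (adjusted p = 0.0521). Lcn2 had 772, 62.8 and 27.2 FPKM in STZ+AOS against 13.5, 4.74 and 19.1 FPKM in STZ+control-FMT (adjusted p = 0.0861). For Havcr1 and Lcn2 STZ+AOS 1 was far above the other STZ+AOS libraries. Timp1, an inhibitor of matrix proteases, was likewise highest in STZ+AOS 1, at 72.3, 4.91 and 1.92 FPKM in STZ+AOS against 0.80, 1.00 and 1.74 FPKM in STZ+control-FMT (adjusted p = 0.0799). Its lowest STZ+AOS value and its highest STZ+control-FMT value lay close together. Such levels were in part reached outside STZ+AOS. Lcn2 was at 44.25 and 35.1 FPKM in STZ 3 and control 3, above STZ+AOS 3. In control 3, Cd44 was at 2.61 FPKM and Timp1 at 2.47 FPKM, each above the lowest STZ+AOS value.

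Genes of matrix, stroma and inflammation gave single calls. Of 25 tested matrix genes 1 was higher, Lox, which cross-links collagen, with 6.66, 3.16 and 10.1 FPKM in STZ+AOS against 2.32, 0.90 and 1.58 FPKM in STZ+control-FMT (4.16-fold, adjusted p = 0.0434). Of the 25, 9 lay above STZ+control-FMT without overlap, a share near the 32% of all genes, and 0 below. Of 12 fibroblast and pericyte markers 1 was higher, Pdgfra, the receptor for platelet-derived growth factor, at 5.15 to 6.59 FPKM in STZ+AOS against 1.77 to 3.24 FPKM in STZ+control-FMT (adjusted p = 0.0488). Of 13 macrophage and monocyte markers 1 was higher, Cd14, a receptor for bacterial lipopolysaccharide, at 158, 23.8 and 30.2 FPKM in STZ+AOS against 8.25, 9.71 and 15.3 FPKM in STZ+control-FMT (adjusted p = 0.0488). Tubule cells can also make Cd14. Of 16 genes of chemokines, cytokines and their receptors 1 was higher, Tnfrsf12a, the receptor for the cytokine TWEAK, at 232, 63.3 and 65.0 FPKM in STZ+AOS against 26.4, 32.2 and 37.7 FPKM in STZ+control-FMT (3.74-fold, adjusted p = 0.0340). The macrophage list otherwise overlapped largely, with 2 of 13 above STZ+control-FMT against 32% of all genes, and its sum was 433, 269 and 167 FPKM in STZ+AOS against 184, 131 and 178 FPKM in STZ+control-FMT. Cd44, Lox, Pdgfra, Cd14 and Tnfrsf12a all failed with STZ+AOS 1 or 3 or any 1 STZ+control-FMT library left out (adjusted p from 0.0545 to 0.184). Lox was at 3.41 FPKM in STZ 3, above STZ+AOS 2. For Pdgfra, Cd14 and Tnfrsf12a the STZ+AOS values lay above every other library of the series.

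**Figure D4:**
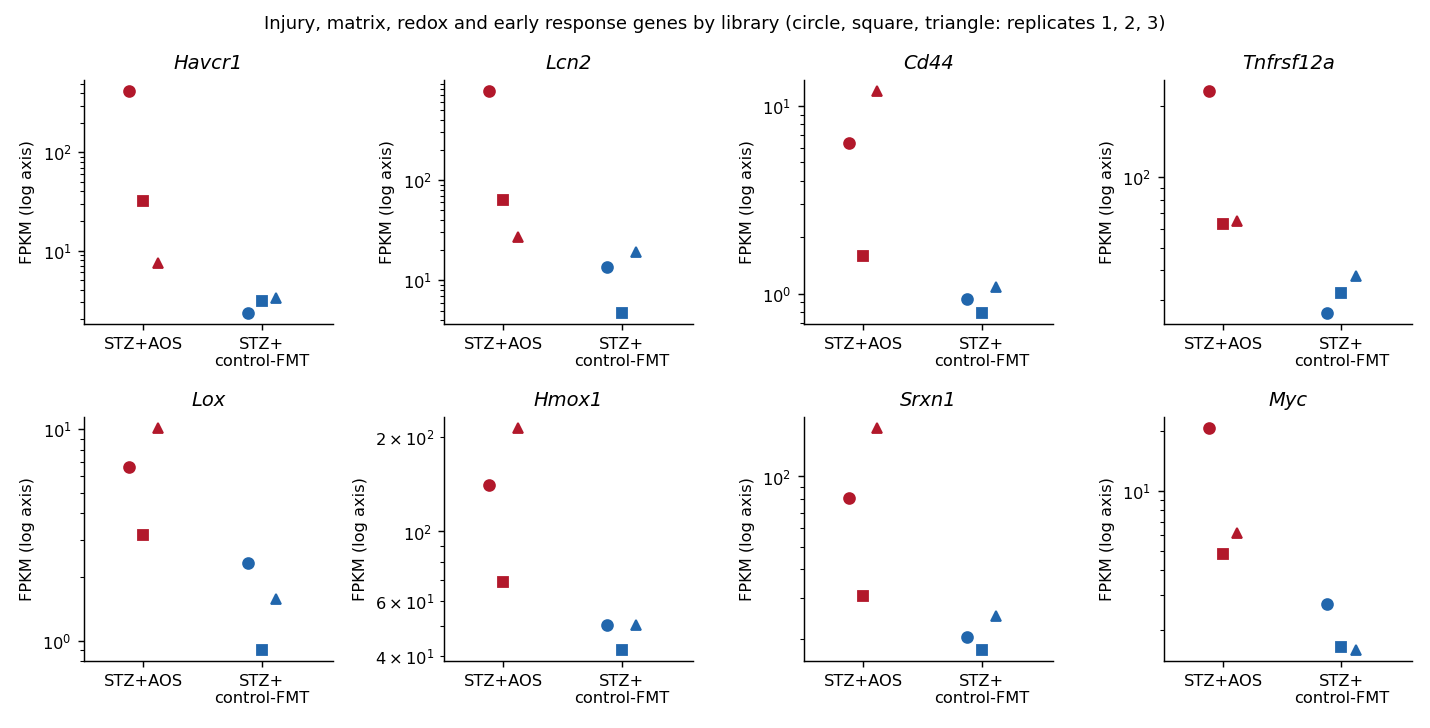
FPKM on log axes of 8 injury, matrix, redox and early response genes in the 3 STZ+AOS and 3 STZ+control-FMT libraries (points; circle, square and triangle are replicates 1, 2 and 3). Havcr1 and Lcn2 are highest in STZ+AOS 1 at 423 and 772 FPKM, while Hmox1 and Srxn1 are highest in STZ+AOS 3 at 214 and 161 FPKM.

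Fga, from the list of complement and fibrinogen, and Cp and Serpina3n, named for the wide gap between the groups, are best known from liver, and all 3 were higher. Fga, the fibrinogen alpha chain, had 29.1, 8 and 49.0 FPKM in STZ+AOS against 5.05, 4.50 and 5.16 FPKM in STZ+control-FMT (5.86-fold, adjusted p = 0.0338). In STZ 2 it was at 8.51 FPKM, above STZ+AOS 2. Cp, ceruloplasmin, the copper-carrying ferroxidase, had 63.2, 28.2 and 29.6 FPKM in STZ+AOS against 10.4, 4.78 and 9.71 FPKM in STZ+control-FMT (4.87-fold, adjusted p = 0.0459). Serpina3n, a protease inhibitor, averaged 9.11 ± 5.91 FPKM in STZ+AOS and 1.23 ± 0.616 FPKM in STZ+control-FMT (SD, n = 3 each, adjusted p = 0.0347). Cfb, a factor of the alternative complement pathway, had 117 to 132 FPKM in STZ+AOS against 153 to 174 FPKM in STZ+control-FMT and did not pass (adjusted p = 0.107). Of the 13 tested genes of complement and fibrinogen, 2 passed, Fga among them. The 5 tested of 7 liver markers had 0 calls, and the sum of the 7 was 27.8 to 54.9 FPKM in STZ+AOS against 46.8 to 52.3 FPKM in STZ+control-FMT. Fga, Cp and Serpina3n did not pass with STZ+AOS 1 or 3 or any 1 STZ+control-FMT library left out (adjusted p from 0.0608 to 0.174).

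Early response and antioxidant genes rose in part. Of 14 tested immediate early genes 3 were higher, against 3.11% of all genes, and these 3 are transcription factors. Without overlap, 5 of the 14 lay above STZ+control-FMT, a share near the 32% of all genes, and 0 below. Myc had 20.7, 4.83 and 6.16 FPKM in STZ+AOS against 2.72, 1.65 and 1.59 FPKM in STZ+control-FMT (5.32-fold, adjusted p = 0.0469). Klf6 was 3.08-fold higher (adjusted p = 0.0406) and Fosl2, an AP-1 member, 3.36-fold (adjusted p = 0.0487). Of 17 tested targets of NRF2, the regulator of the antioxidant response, 4 were higher, against 3.11% of all genes, and 0 lower. Without overlap, 11 lay above STZ+control-FMT and 2 below it, against 32% and 7.77% of all genes. The list median relative to all genes changed sign with Cyp11b1 as a covariate. Hmox1, which breaks down haem, had 140, 68.9 and 214 FPKM in STZ+AOS against 50.4, 41.7 and 50.4 FPKM in STZ+control-FMT (2.97-fold, adjusted p = 0.0347). Srxn1, which restores oxidised peroxiredoxins and whose promoter is printed above, had 81.0, 30.8 and 161 FPKM in STZ+AOS against 20.4, 17.9 and 25.2 FPKM in STZ+control-FMT (4.30-fold, adjusted p = 0.0423). Both were lowest in STZ+AOS 2 and highest in STZ+AOS 3. G6pdx, which supplies NADPH, was 1.84-fold and Gclc, the catalytic subunit of the enzyme that starts glutathione synthesis, 1.43-fold higher (adjusted p = 0.0423 and 0.0460). With STZ+AOS 1 or 3 or any 1 STZ+control-FMT library left out none of the 7 passed (adjusted p from 0.0593 to 0.176). Hmox1 in STZ 3 (76.4 FPKM), Srxn1 in STZ 3 and control 3 (34.5 and 41.4 FPKM) and Gclc in control 1 (77.3 FPKM) exceeded their lowest STZ+AOS value. So did Klf6 and G6pdx in STZ 3. For Myc and Fosl2 the STZ+AOS values lay above every other library of the series.

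Genes that glucocorticoids and metals raise were high in STZ+AOS without a call. Of 15 tested 0 passed, 10 lay above STZ+control-FMT without overlap, against 32% of all genes, and 0 below, and the median was 1.26, beside 0.16 over all genes. Mt2, a metallothionein, had 1019, 364 and 634 FPKM in STZ+AOS against 184, 151 and 198 FPKM in STZ+control-FMT (adjusted p = 0.104). Mt1 had 1025 to 1860 FPKM in STZ+AOS against 519 to 671 FPKM in STZ+control-FMT (adjusted p = 0.154). Sgk1, the kinase that steroids induce, had 63.8 to 79.2 FPKM in STZ+AOS against 23.2 to 42.9 FPKM in STZ+control-FMT (adjusted p = 0.128). Among 17 targets of p53, the tumour suppressor, 9 lay above STZ+control-FMT without overlap, against the same 32%, and none passed. Cdkn1a, a cell cycle inhibitor on both lists and on the injury list, had 112, 76.0 and 155 FPKM in STZ+AOS against 35.3, 27.4 and 40.3 FPKM in STZ+control-FMT (adjusted p = 0.164). Such levels were not particular to STZ+AOS. In STZ 3 and control 3, Mt1 was at 1663 and 1491 FPKM, Sgk1 at 82.5 and 63.4 FPKM and Cdkn1a at 80.1 and 82.6 FPKM. The remaining libraries outside STZ+AOS lay below all STZ+AOS values for these 3 genes. With Cyp11b1 as a covariate the log2 differences of Mt1, Mt2, Sgk1 and Cdkn1a turned below 0 (-1.08, -1.09, -0.50 and -1.29).

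Markers of the glomerulus and of blood vessels were high in STZ+AOS, again without a call. All 10 endothelial markers lay above STZ+control-FMT without overlap, against 32% of all genes, and their sum was 430, 342 and 454 FPKM in STZ+AOS against 248, 212 and 272 FPKM in STZ+control-FMT. Ehd3, a marker of glomerular endothelium, had 21.3, 12.9 and 17.3 FPKM in STZ+AOS against 9.47, 7.43 and 10.9 FPKM in STZ+control-FMT (adjusted p = 0.0614). Plvap, of fenestrated vessels, had 138, 109 and 179 FPKM in STZ+AOS against 77.0, 69.6 and 75.1 FPKM in STZ+control-FMT (adjusted p = 0.0733). Of 10 podocyte markers 7 lay above STZ+control-FMT without overlap, against the same 32%, and 0 below, and their sum was 164 to 193 FPKM in STZ+AOS against 90.8 to 125 FPKM in STZ+control-FMT. Wt1, a transcription factor of podocytes, had 4.80, 3.20 and 5.32 FPKM in STZ+AOS against 1.41, 1.18 and 1.66 FPKM in STZ+control-FMT (adjusted p = 0.0509). Podxl, which coats the podocyte surface, had 41.7 to 46.6 FPKM in STZ+AOS against 21.1 to 30.1 FPKM in STZ+control-FMT (adjusted p = 0.104). In control 3 the podocyte sum was 190 FPKM and Podxl 44.0 FPKM, both within the range of STZ+AOS. The endothelial sum of control 3, 310 FPKM, lay below that range. With Cyp11b1 as a covariate the log2 differences of Wt1, Podxl and Plvap turned to -0.079, -0.28 and -0.15, and the endothelial and podocyte medians relative to all genes to -0.01 and -0.22. The part of the adrenal transcripts in these levels was not tested.

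Markers of the later tubule gave no calls. The 11 tested markers of the thick ascending limb, 12 of the distal and connecting tubule, 10 of principal cells and 11 of intercalated cells had 0 genes past the threshold in either direction. Slc12a1, the salt carrier of the thick ascending limb, had 132, 208 and 208 FPKM in STZ+AOS against 106, 123 and 125 FPKM in STZ+control-FMT (adjusted p = 0.322). Aqp2, the water channel of principal cells, had 139, 238 and 434 FPKM in STZ+AOS against 125, 130 and 232 FPKM in STZ+control-FMT, which overlapped. Of 15 transcription factors of the tubule 1 was higher, Pax8, which is needed for kidney development, at 90.7, 55.4 and 79.2 FPKM in STZ+AOS against 35.8, 42.9 and 42.2 FPKM in STZ+control-FMT (1.86-fold, adjusted p = 0.0338). Pax8 failed without STZ+AOS 1 or 3 or any 1 STZ+control-FMT library (adjusted p from 0.0642 to 0.144). In STZ 3 it was at 58.1 FPKM, above STZ+AOS 2. Esrra, a nuclear receptor that drives mitochondrial genes, had 53.9 to 67.6 FPKM in STZ+AOS against 68.3 to 80.5 FPKM in STZ+control-FMT (adjusted p = 0.0702).

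**Figure D5:**
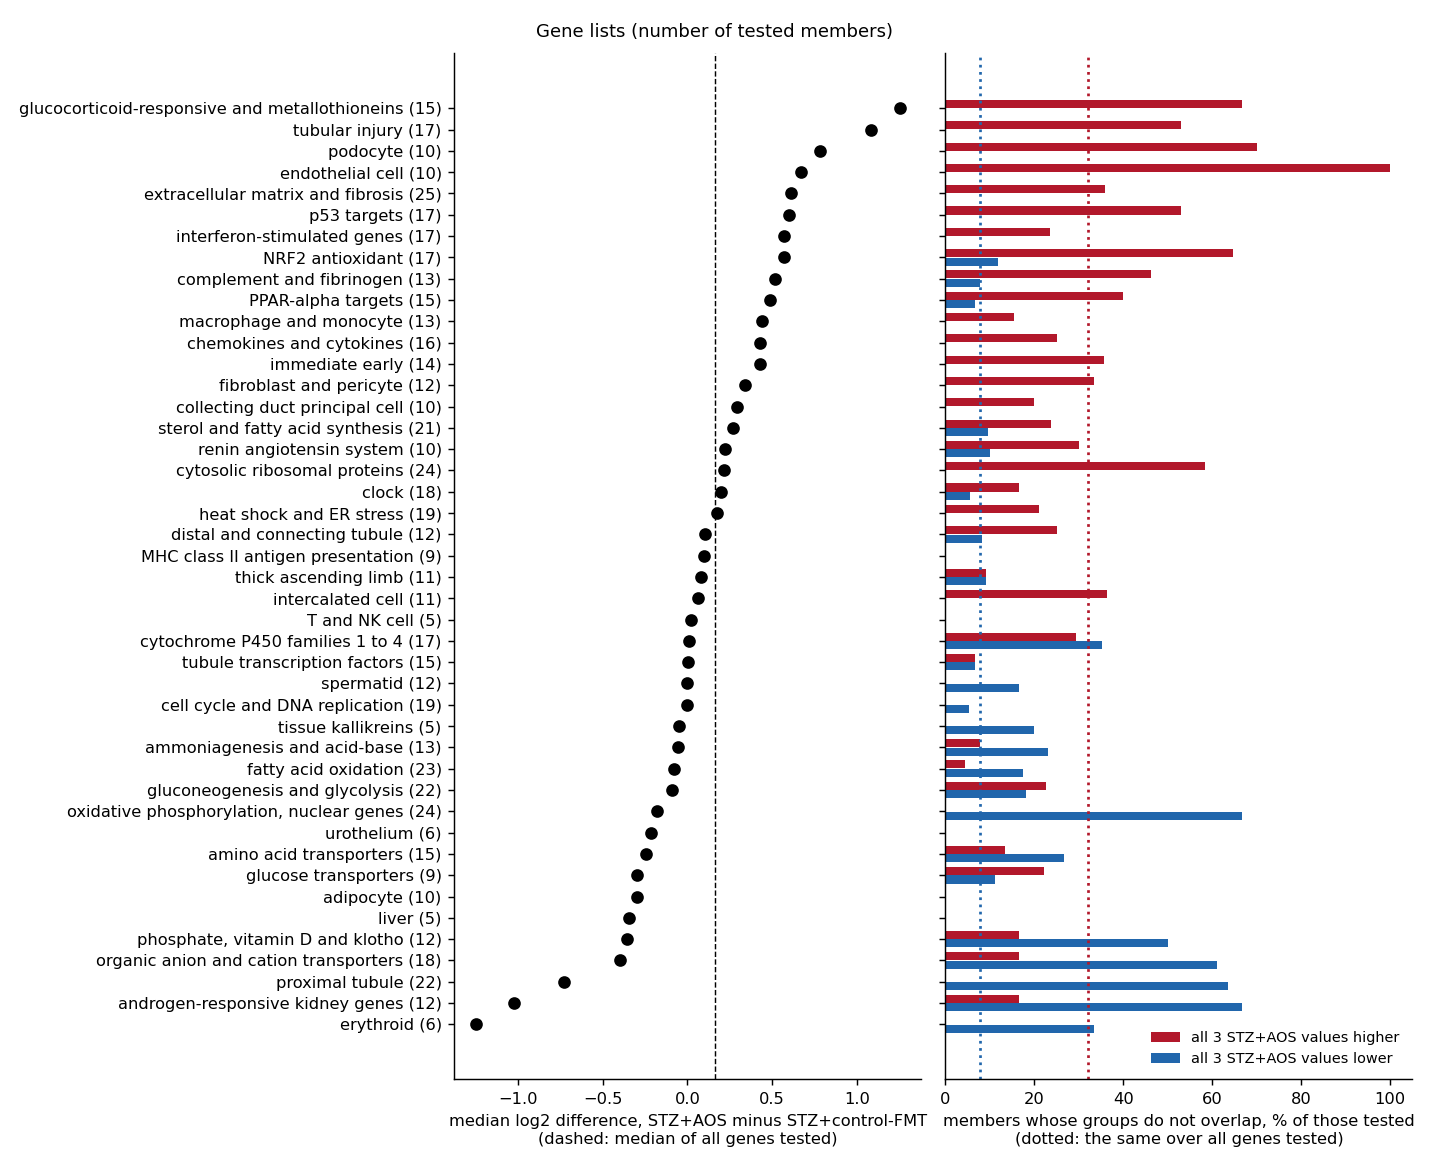
For gene lists with at least 5 tested members, without the adrenal lists, the median log2 difference STZ+AOS minus STZ+control-FMT (left; dashed, 0.16 over all genes) and the share of tested members whose groups do not overlap (right; red, all STZ+AOS values higher; blue, all lower; dotted, 32% and 7.77% over all genes). Endothelial, podocyte and metallothionein lists lie to the right, and the proximal tubule and androgen lists to the left at -0.73 and -1.02.

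Outside the lists of other tissues, the named rises with the widest gap between the groups were of mixed function. Prss35, a serine protease, had 17.2, 4.91 and 5.73 FPKM in STZ+AOS against 0.67, 0.24 and 1.42 FPKM in STZ+control-FMT (11.9-fold by the means, adjusted p = 0.0391). Slc38a2, a carrier of neutral amino acids, had 44.7, 29.2 and 30.6 FPKM in STZ+AOS against 10.2, 12.9 and 15.5 FPKM in STZ+control-FMT (2.71-fold, adjusted p = 0.0324). Slc6a4, the serotonin transporter, had 2.28, 1.87 and 1.91 FPKM in STZ+AOS against 0.54, 0.42 and 0.46 FPKM in STZ+control-FMT (adjusted p = 0.0324). In these genes STZ+AOS 2 was close to STZ+AOS 3, and no values overlapped. Akap12, a kinase scaffold, had 42.6, 7.90 and 7.52 FPKM in STZ+AOS against 1.79 to 2.97 FPKM in STZ+control-FMT (adjusted p = 0.0473). Sbsn (suprabasin), Ndn (necdin), Slc25a24 (a mitochondrial carrier) and LOC108168679 were 7.38-, 4.39-, 4.10- and 3.66-fold higher, with adjusted p of 0.0406, 0.0454, 0.0439 and 0.0423. None of the 8 passed with STZ+AOS 1 or 3 or any 1 STZ+control-FMT library left out (adjusted p from 0.0608 to 0.169). In control 3, which had 1108 FPKM of adrenal cortex markers, Sbsn, LOC108168679 and Ndn were at 6.01, 4.98 and 3.60 FPKM, within the STZ+AOS range. Prss35, Akap12 and Slc25a24 were next highest there after STZ+AOS, at 3.66, 7.32 and 4.85 FPKM. Slc38a2 and Slc6a4 were not. Absence from the lists does not place a gene outside those tissues, and an adrenal part was not tested.

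The other 4 groups show where these genes lie in the rest of the series. For 243 of the 395 higher genes all 3 STZ+AOS libraries lay above all of the other 15, against 8.13% of all genes tested. For 97 of the 172 lower genes they lay below all 15, against 1.66%. Both sets were chosen with 3 of those 15 libraries. The STZ+AOS-FMT mean was nearer to the STZ+control-FMT mean than to the STZ+AOS mean for 562 of the 567 genes. The same held for the AOS mean in 542, the STZ mean in 541 and the control mean in 505. These 567 genes were chosen by the distance between STZ+AOS and STZ+control-FMT in these values, and the share over all genes was not counted. The counts are therefore no measure of likeness between the transfer groups. Nat8f1 had 219 to 344 FPKM in the other 12 libraries, above all STZ+AOS values, and Pdzk1 had 444 to 673 FPKM, also above them. Slc22a6 had 285 to 592 FPKM there, which overlapped STZ+AOS. So did Slc5a2 at 195 to 345 FPKM, Thnsl2 at 52.5 to 164 FPKM and Akr1c21 at 790 to 1710 FPKM. Acaa1a had 72.3 to 84.2 FPKM in STZ+AOS, 71.0 to 73.2 FPKM in AOS and 64.0 to 79.2 FPKM in control. It had 92.0 to 115 FPKM in STZ+control-FMT and STZ+AOS-FMT. Havcr1 ran from 1.30 to 19.4 FPKM in those 12 libraries, so that STZ+AOS 3 lay within their range and STZ+AOS 1 and 2 above it. Cyp21a1 reached 247 FPKM in control 3, within the range of STZ+AOS.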

How the data were processed

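Per the labels, kidneys were frozen, total RNA was taken with Trizol and then a column kit, and libraries were Illumina libraries. Bowtie 0.12.2 and mm10 are named in the submitters' processing notes. Not given in the sources used here are how reads were counted and with what annotation and filters. The authors' deposited table is read as FPKM because the sum of value times gene length had a coefficient of variation of 0.941% among the 18 libraries, against 5.47% for the sum of values alone. Read totals are unknown, so no counting interval is given. The table has 19545 entries, and 18991 symbols matched GENCODE M21, used for coordinates.

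The 12682 genes that reached 1 FPKM in 3 or more libraries were put on log2(FPKM + 1), which understates the change of low genes. All 18 libraries were fitted in limma 3.58.1 under R 4.3.3 (a mean for each group, trend and robust), and p-values were adjusted by the Benjamini-Hochberg method over all genes at a threshold of 0.05. Errors are SD over 3 libraries, or SE from the fit. With 3 against 3 libraries the smallest p of an exact permutation test is 0.1, so none was run.

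Of the differing genes with no overlap and a group mean of at least 1 FPKM, the 10 largest rises and falls were named, and the 10 each way with the widest gap outside other tissues' lists. Members of 49 lists were named by smallest p or as the defining member. Hbb-b1 and Hbb-b2 were named after their values were seen. The members and lists were chosen with earlier results of these data known. Alternatives changed the scaling, filter, pseudocount, variance model and samples. Some named members are not reported here, and counts of lists include them.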

Additional observations from a re-analysis of the deposited data

How the results depend on the processing

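Among 567 genes past the threshold (395 higher, 172 lower), counts stayed within 1.5 times without a filter (553), without trend and robust options (585), after quantile normalization (471, 214 of them higher), with a pseudocount of 0.1 (380, 240 higher), with a mean of 5 FPKM or more required (430, 253 higher) and after median-of-ratios rescaling (758, 257 higher and 501 lower). A pseudocount of 5 gave 892 (670 higher), library weights 2586 (2104 and 482), a fit of only the 6 libraries compared 2 (2 and 0), and leaving control 3 and STZ 1 out of the spread 3428 (2770 and 658). Cyp11b1 as a covariate gave 0 and 0 each way, with 887 genes at an unadjusted p under 0.05 and 555 of the 567 in the same direction, and leaving out STZ+AOS 1 and 3, with 1 library left in that group, gave 0. Chosen after seeing the data, leaving out STZ+AOS 1 and 3 with control 3 and STZ 1 out of the spread gave 47 (40 and 7), of which 26 were among the 567. Without each of the 6 libraries compared in turn the counts ran from 0 to 1389 (higher 0 to 995, lower 0 to 394). Libraries of the other groups were not left out singly. Same-numbered libraries of STZ+AOS and STZ+control-FMT did not deviate together (r of 0.053, -0.072 and -0.002). These values leave out the other groups, so they cannot decide whether the numbers mark a shared batch. The replicate block gave 1115 (839 and 276), with all 567 among them. The cause of each move was not tested.

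With Cyp11b1 as a covariate the log2 difference turned for Slc34a1 (0.0014), Slc22a12 (0.27), Kap (1.29), Slco1a1 (1.18), Cyp4b1 (0.88), Slc7a12 (-0.12), Slc2a1 (-0.0050), Ctgf (-0.23), Csf1 (-0.096), C3 (-0.79), Cfb (0.089), Ifit2 (-0.32), Mt1 (-1.08), Mt2 (-1.09), Sgk1 (-0.50), Cyp4a14 (-1.13), Cdkn1a (-1.29), Mdm2 (-0.35), Wt1 (-0.079), Podxl (-0.28), Plvap (-0.15), Slc12a1 (-0.22), Aqp2 (-0.86), Hba-a1 (0.34), Nr5a1 (-0.074), Mc2r (-0.41), Npy (-0.95), Slc18a1 (0.088), Hsd3b1 (-0.31), Cyp11a1 (-0.077), Star (-0.12), Akr1b7 (-0.13), Hbb-b1 (1.13) and Hbb-b2 (0.82). Hbb-b1 also turned with library weights (0.090) and Hbb-b1 and Hbb-b2 without STZ+AOS 1 and 3, in both such fits (0.57 and 0.33).

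Each group has 3 libraries of unknown depth. Beyond the named genes, list medians relative to all genes changed sign with the Cyp11b1 covariate for the proximal tubule (0.082), injury (-0.31), endothelial (-0.013), podocyte (-0.22) and NRF2 (-0.06) lists. Those of the organic anion and cation transporter list and the phosphate list also changed sign, as given above. Other lists are not reported here.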

Other observations

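The globin genes of red cells gave no call but differed between entries. Hbb-bs (chr7:103826534-103828096, minus strand), an adult beta-globin, had 1.07, 1.21 and 2.60 FPKM in STZ+AOS against 3258, 127 and 871 FPKM in STZ+control-FMT (adjusted p = 0.0657). Hbb-bt, its neighbour, had 0.23, 0.58 and 0.92 FPKM in STZ+AOS against 395, 19.6 and 115 FPKM in STZ+control-FMT (adjusted p = 0.0648). Every STZ+AOS value lay far below every STZ+control-FMT value for both. Low values were not particular to STZ+AOS, since Hbb-bs was at 2.09 FPKM in STZ 2, 1.04 and 2.93 FPKM in AOS 1 and 2, and listed at 0 in control 1, within a range up to 1537 FPKM in those groups. Hbb-b1, another beta-globin, had 828, 5546 and 2245 FPKM in STZ+AOS against 1613, 3109 and 10478 FPKM in STZ+control-FMT, and these overlapped, as did Hbb-b2. Hba-a1, an alpha-globin, had 2089, 12967 and 5886 FPKM in STZ+AOS against 11480, 7413 and 26983 FPKM in STZ+control-FMT. These beta-globin entries are nearly alike, and ICR mice are outbred. Differences in alleles between mice and reads shared among entries cannot be told apart here, and neither was tested. How the counting shared reads among the entries is not given in the sources used here.

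No calls were held by the lists of cytosolic ribosomal proteins, PPAR-alpha targets, sterol and fatty acid synthesis, and the clock. Of 24 ribosomal protein genes 14 lay above STZ+control-FMT without overlap, against 32% of all genes, and 0 below, with a median log2 difference of 0.22 beside 0.16 over all genes. Cyp4a14, a fat-oxidising enzyme induced through PPAR-alpha, had 116, 234 and 109 FPKM in STZ+AOS against 20.9, 7.18 and 17.97 FPKM in STZ+control-FMT (adjusted p = 0.156), without overlap. In sterol and fatty acid synthesis, Scd2, a desaturase, had 40.3, 15.4 and 34.7 FPKM in STZ+AOS against 9.41, 9.71 and 15.4 FPKM in STZ+control-FMT (adjusted p = 0.0508), while Cyp51, of cholesterol synthesis, had 22.6, 56.5 and 50.0 FPKM in STZ+AOS against 73.7, 68.7 and 90.8 FPKM in STZ+control-FMT (adjusted p = 0.0665). Cry1, a repressor of the clock, had 2.87, 2.14 and 3.93 FPKM in STZ+AOS against 1.34, 0.84 and 1.65 FPKM in STZ+control-FMT (adjusted p = 0.0775).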
